A study of Homo sapiens with 12 samples.

Results

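The 40 genes described here encode proteins that carry a cell through mitosis, and they were followed in the colorectal cancer line SW48 after inhibition of DNA methylation, of histone deacetylation, or of both. They were chosen by symbol as a fixed list of mitosis genes, and every array probe that the platform annotation assigns to 1 of these symbols was taken, which gave 62 of the 48801 probes with an identifier. The list was chosen with earlier results of these data known. RNA of SW48, an established microsatellite-instable colorectal line, was hybridised to HumanWG-6 v3 arrays of Illumina, on which each probe reports 1 intensity. The 12 arrays held 4 groups of 3: cells labelled non-treated (control), cells given 5'-Aza-cytidine (azacytidine, an inhibitor of DNA methyltransferases) at 1 µM for 5 days, cells given Trichostatin A (TSA, an inhibitor of histone deacetylases) at 0.5 µM for 2 days, and cells given azacytidine first and TSA afterwards (combined). All groups share the same line, medium and total RNA protocol. Exposure time differs between the groups and cannot be told apart from the agent, and whether the 3 samples of a group are separate cultures is not stated, so each p-value measures the spread between these arrays, which may be technical. A single cell line was used.

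Mitotic entry is driven by cyclin-dependent kinase 1 bound to A- and B-type cyclins, and the Aurora, Polo-like and NIMA-related kinases then organise the spindle. Kinetochore and centromere proteins attach chromosomes to microtubules, the spindle checkpoint holds the cell until attachment is complete, and the anaphase-promoting complex with CDC20 and UBE2C then releases separase. Transcription of most of these genes peaks in G2 and M phase. Many of their promoters carry a CHR element (cell cycle genes homology region) near the start site, bound by the MuvB complex, together with NF-Y boxes spelled CCAAT, and FOXM1 is an activator in the same program.

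The promoter windows of the genes are shown first because these elements are what the family is known to share and the list was not chosen by them. RefSeq windows on GRCh38.p14, running from 250 bases before to 50 bases after the transcription start, were matched by symbol to 33 of the 40 genes and gave 42 windows, since 5 genes have several starts. FOXM1, AURKA, TPX2, BIRC5, BUB3, TTK and UBE2C had no window. Both strands were searched for the CHR spelling TTTGAA, for its variant TTCGAA, for the variants CTTGAA and also TTTAAA, and for the NF-Y box CCAAT. A CHR match and a CCAAT match can share bases in a promoter only where their ends meet. TTCGAA reads the same on both strands, as does TTTAAA. Of the 42 windows, 34 (81%) held a CHR spelling, against 32.2% of all 35116 windows. A CCAAT box stood in 31 (73.8%), against 34.6% of all windows, and both stood in 27 (64.3%), against 12.4%. In the 40 bases before the start, a stretch picked after the positions were seen, a CHR spelling began in 22 of the 42 windows (52.4%) and in 5.37% of all windows. The windows of genes that fell after the combined treatment and of those that did not held a CHR spelling at 81.5% (22 of 27 windows) and 80% (12 of 15). By single spelling, TTTGAA stood in 66.7% (18 of 27) and 40% (6 of 15) of these windows, and TTTAAA in 25.9% (7 of 27) and 46.7% (7 of 15). These shares count windows, not genes. Every window of CDC25B is among the 15 and every window of CDC25C among the 27, so genes with several starts weigh more. No test was made of these shares. The windows printed are those of CCNB1, CCNA2, KIF11, AURKB, INCENP and CDC25B. Against control, KIF11 and AURKB fell in both treatments with azacytidine, and INCENP rose in both. CCNA2 fell after the combined treatment only, and CCNB1 rose after azacytidine and fell after the combined treatment. CDC25B fell after azacytidine only, and was higher in the combined group than after azacytidine. Each is written 5′ to 3′ on the gene's strand, with CHR spellings and CCAAT boxes (read on either strand) in capitals; a match is a description of letters only.
CCNB1 (chr5:69166900-69167199, plus strand): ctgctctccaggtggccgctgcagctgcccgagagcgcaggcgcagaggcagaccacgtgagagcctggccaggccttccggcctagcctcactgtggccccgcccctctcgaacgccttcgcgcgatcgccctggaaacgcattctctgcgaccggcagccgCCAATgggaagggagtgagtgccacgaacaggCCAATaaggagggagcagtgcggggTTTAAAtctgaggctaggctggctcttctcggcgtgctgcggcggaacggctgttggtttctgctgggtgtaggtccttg
CCNA2 (chr4:121823834-121824133, minus strand): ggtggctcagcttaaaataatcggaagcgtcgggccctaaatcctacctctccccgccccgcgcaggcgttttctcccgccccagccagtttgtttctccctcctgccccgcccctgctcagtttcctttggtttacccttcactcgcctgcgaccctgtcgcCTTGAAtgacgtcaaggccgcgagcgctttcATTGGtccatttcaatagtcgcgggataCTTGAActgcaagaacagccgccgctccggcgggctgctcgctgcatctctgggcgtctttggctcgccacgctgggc
KIF11 (chr10:92592880-92593179, plus strand): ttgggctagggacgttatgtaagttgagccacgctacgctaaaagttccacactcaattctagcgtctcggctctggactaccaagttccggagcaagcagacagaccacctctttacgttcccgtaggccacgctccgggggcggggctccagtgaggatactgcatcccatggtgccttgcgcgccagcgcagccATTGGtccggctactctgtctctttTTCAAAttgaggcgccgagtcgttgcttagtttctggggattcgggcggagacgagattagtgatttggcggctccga
AURKB (chr17:8210176-8210475, minus strand): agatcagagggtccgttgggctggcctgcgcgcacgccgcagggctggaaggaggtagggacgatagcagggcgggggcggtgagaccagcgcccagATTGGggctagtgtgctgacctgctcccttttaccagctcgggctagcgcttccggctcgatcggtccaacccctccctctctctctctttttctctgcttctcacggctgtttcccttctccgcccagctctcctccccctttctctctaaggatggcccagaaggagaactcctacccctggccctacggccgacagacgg
INCENP (chr11:62123761-62124060, plus strand): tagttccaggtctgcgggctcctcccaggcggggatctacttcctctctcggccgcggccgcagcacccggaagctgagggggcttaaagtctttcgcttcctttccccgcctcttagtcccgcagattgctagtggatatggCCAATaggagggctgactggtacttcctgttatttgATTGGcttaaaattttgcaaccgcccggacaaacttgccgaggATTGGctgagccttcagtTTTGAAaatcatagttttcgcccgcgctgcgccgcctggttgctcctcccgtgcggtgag
CDC25B, one of its 4 windows (chr20:3796060-3796359, plus strand): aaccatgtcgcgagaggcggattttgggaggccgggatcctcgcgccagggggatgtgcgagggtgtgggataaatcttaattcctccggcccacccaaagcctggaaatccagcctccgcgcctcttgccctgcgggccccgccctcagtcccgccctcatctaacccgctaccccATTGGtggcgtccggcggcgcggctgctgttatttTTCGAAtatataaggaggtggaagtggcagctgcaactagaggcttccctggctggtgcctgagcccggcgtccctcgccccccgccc
Counting from the start site, the first CHR letter lay at position -30 in CCNB1, -28 in CCNA2 (with a second match at -87), -28 in KIF11, -10 in INCENP and -38 in the CDC25B window printed. That CDC25B window was picked for print because it holds a CHR spelling. The CDC25B windows that begin at bases 3786701 and 3795539 of chromosome 20 hold none. No CHR spelling lay in the AURKB window printed, which held 1 CCAAT box at -153. The other AURKB window, which begins at base 8210200 of chromosome 17, held none either, and its CCAAT box lay at -129. Bases outside the windows were not searched.

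**Figure D1:**
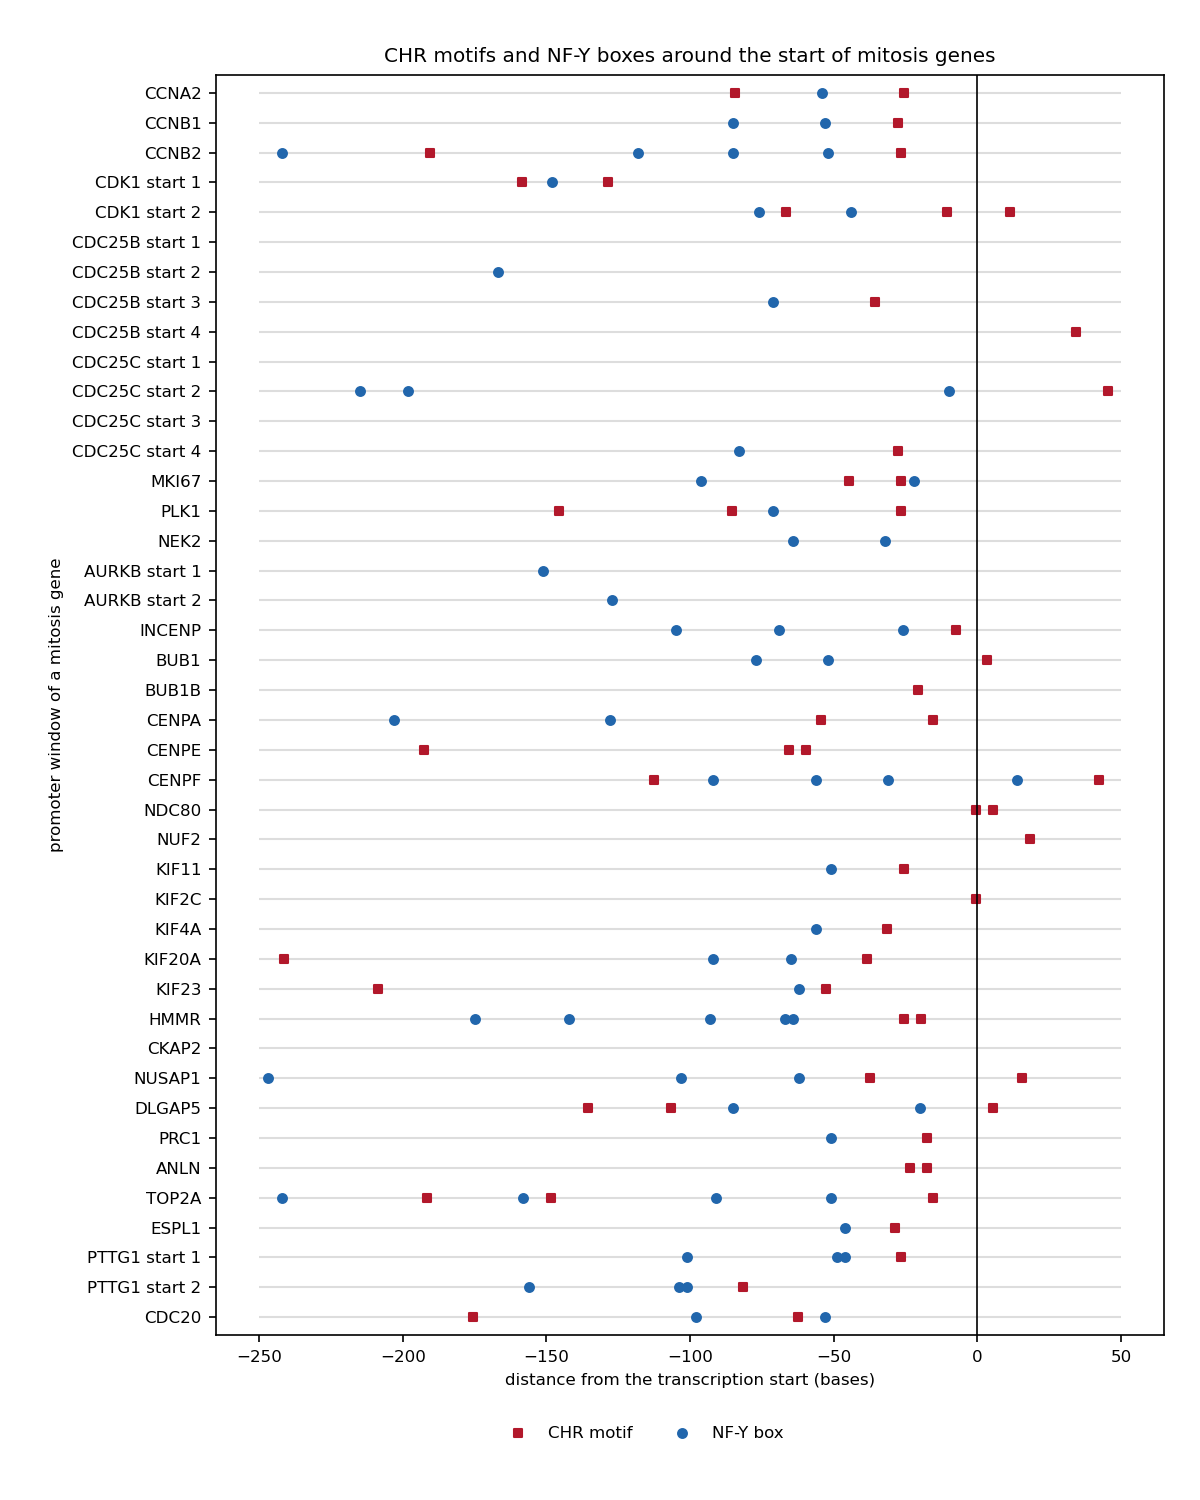
Each grey line is 1 of the 42 promoter windows of the mitosis genes, with distance from the transcription start in bases on the horizontal axis; squares mark CHR spellings and circles mark CCAAT boxes (NF-Y boxes) on either strand, at their middle. CHR squares gather just before the start, where 22 windows hold one in the last 40 bases.

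The arrays were of like quality. Between 11742 and 13647 probes per array were detected (detection p under 0.01), with group means of 11870 for control, 12869 for azacytidine, 12419 for TSA and 12902.7 for the combined treatment, so the azacytidine groups had more detected probes. Correlations within a group ran from 0.991 to 0.996. The 2 chips of 6 arrays each held all 4 groups, unevenly: chip 1 had 2 arrays each of control and TSA and 1 each of the azacytidine and combined groups. Of 12 colon epithelium markers, 8 (EPCAM, KRT8, KRT18, KRT19, CDH1, CDH17, CDX2 and CLDN7) were detected on all 12 arrays, and KRT20, VIL1 and LGALS4 were detected on none. Their summed intensity ran from 42690 to 46702 in control, 29873 to 33032 after azacytidine, 40108 to 49439 after TSA and 32845 to 37991 after both. No fibroblast or endothelial marker was detected on all arrays, and COL1A2, COL3A1, DCN, LUM, FAP, CDH5 and KDR were detected on none. THY1 of the fibroblast, VWF of the endothelial and CD14 of the haematopoietic markers were detected on all 6 arrays with azacytidine and on 0 of the control and TSA arrays. Of 6 haematopoietic markers 4 (PTPRC, CD3E, LYZ and HBB) were detected on no array, while CD68 was on all. The summed fibroblast signal was 255 to 266 in control, 353 to 378 after azacytidine, 259 to 261 after TSA and 549 to 626 after both, the endothelial signal 168 to 171, 336 to 379, 171 to 192 and 981 to 1139, and the haematopoietic signal 4503 to 5750, 5087 to 5561, 4450 to 5447 and 6458 to 7230. The part of any of these shifts in the results below was not tested.

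All 40 genes passed the filter on dim probes, and 39 of them were detected on all 12 arrays; MKI67, the widely used proliferation antigen, was detected on 2 control arrays, 1 azacytidine array, 3 TSA arrays and 0 combined arrays. Values are log2 intensities after background correction and quantile normalization, from the brightest probe of each gene, changes are differences of group means with their SE, and the adjusted p-values come from limma over all 9484 genes. The counts below thus rest on 1 probe per gene, and 15 of the genes had more than 1 kept probe. All kept probes of a gene passed (adjusted p over probes) in the same direction for 4 of these 15 after azacytidine and 6 after both. That number was 4 for combined against azacytidine, 8 for combined against TSA and 3 for the interaction. In bulk RNA, fewer cells in G2 and M phase and less RNA per such cell cannot be told apart.

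Azacytidine lowered most of the mitosis genes. After 5 days, 24 of 40 genes were lower than control, where 31.2% of all genes were, and 6 were higher, where 32.3% of all genes were (limma, adjusted p under 0.05). The median change over the 40 genes was -0.33, against 0.01 over all genes tested. After the combined treatment 26 were lower (36.2% of all genes) and 2 higher (32.8% of all genes), with a median of -0.43 against -0.04. The shares of all genes depended on the filter on dim probes. With no such filter, 17.8% of all genes were higher and 17.3% lower after azacytidine, and 19.9% and 20.7% after both. The decreases were moderate: 8 genes fell by 1.5-fold or more after azacytidine and 13 after both, counting MKI67 at its fitted value. The share of all genes past such fold limits was not counted, so these numbers describe size only. A decrease of 2-fold or more was measured for AURKB after azacytidine and for AURKB, KIF11 and BUB1B after both. Scaling each array to a common median left the median over all genes at -0.14 after azacytidine and -0.32 after both, and the median of the mitosis genes stood -0.39 and -0.41 below that of all genes, against -0.34 and -0.39 with quantile normalization. That scaling gave 2 higher and 24 lower mitosis genes after azacytidine and 1 and 31 after both, and over all genes 1695 higher and 2903 lower (3067 and 2956 with quantile normalization) and 1528 and 4261 (3108 and 3433). Within chip 1 and chip 2 alone the median of the mitosis genes was -0.29 and -0.38 after azacytidine and -0.37 and -0.44 after both. All 30 genes called after azacytidine and all 28 called after both kept their direction on each chip and passed with the chip as a block. These genes were picked by their calls on the same arrays, so this agreement is no independent support. Taken alone, with 2 arrays or 1 in each group, chip 1 gave 15 lower genes after azacytidine (23.8% of all genes were lower there) and chip 2 gave 20 (24.7%). On chip 1 alone 12 of the 30 azacytidine calls and 6 of the 28 combined calls were lost, and on chip 2 alone 6 and 5.

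**Figure D2:**
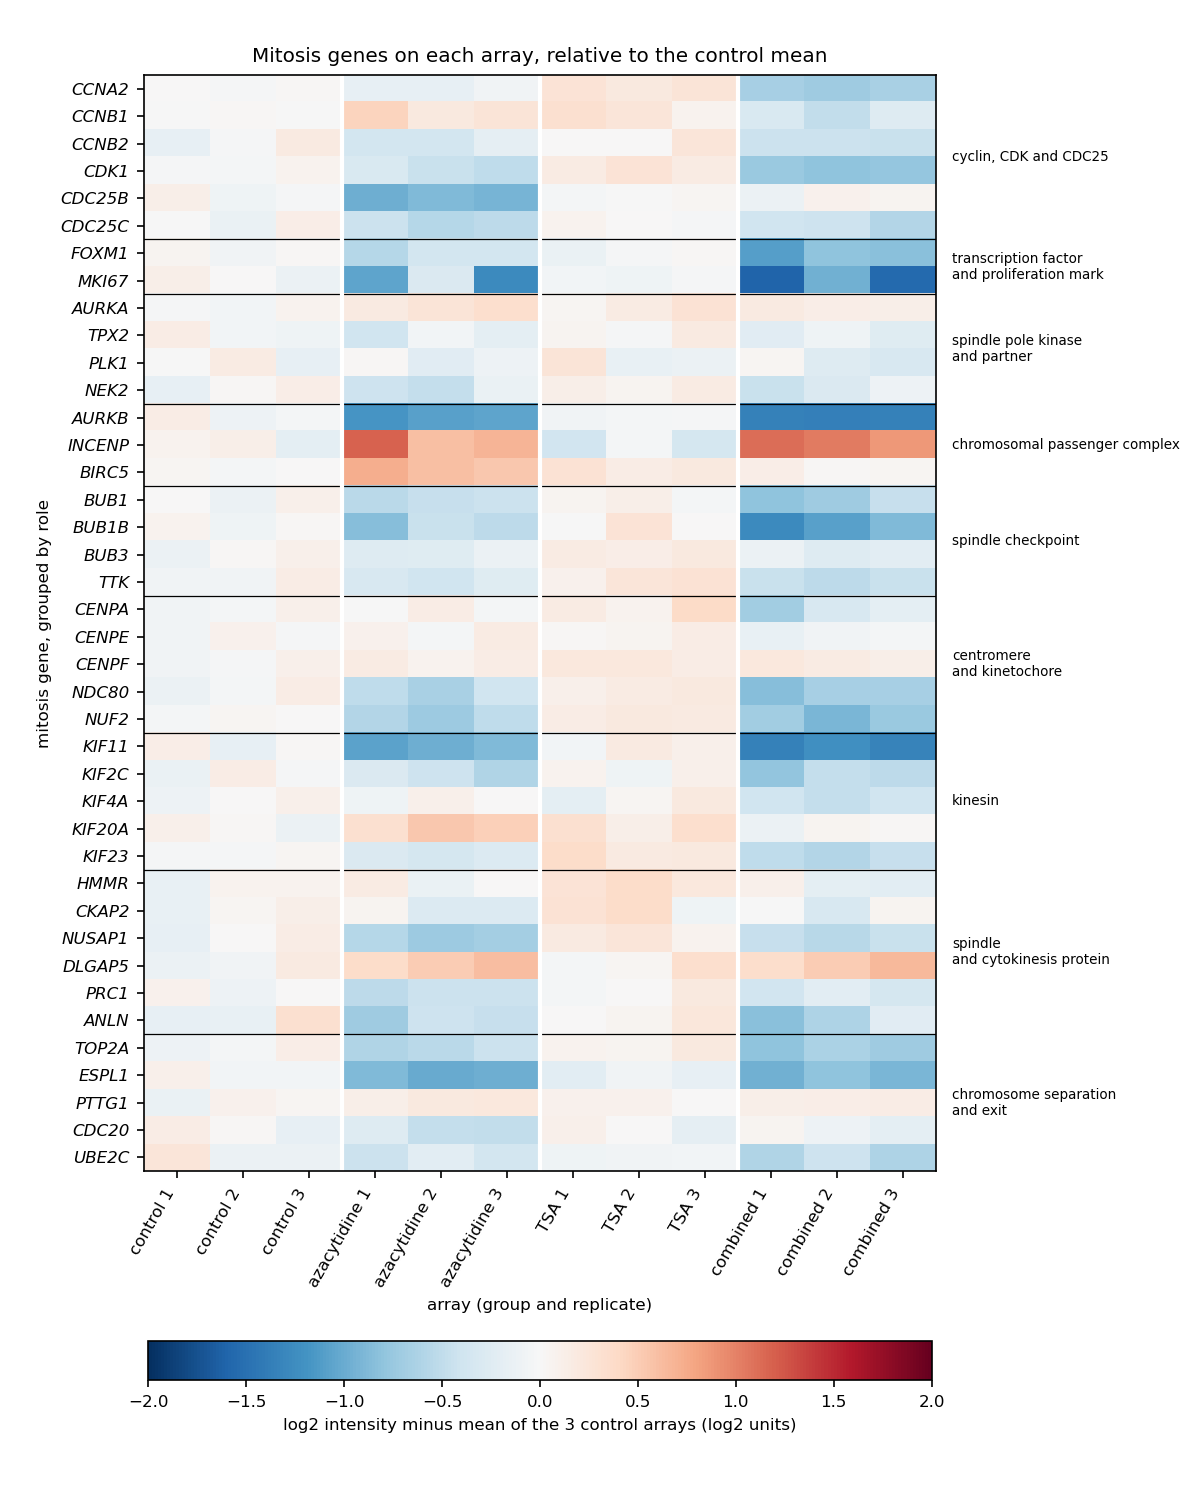
Colours give log2 intensity of each of the 40 mitosis genes (rows, by role) on each of the 12 arrays (columns) minus the mean of the 3 control arrays, in log2 units. Blue predominates on the azacytidine and combined arrays, with INCENP, DLGAP5 and, after azacytidine alone, BIRC5 in red, and the TSA arrays stay close to control.

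**Figure D3:**
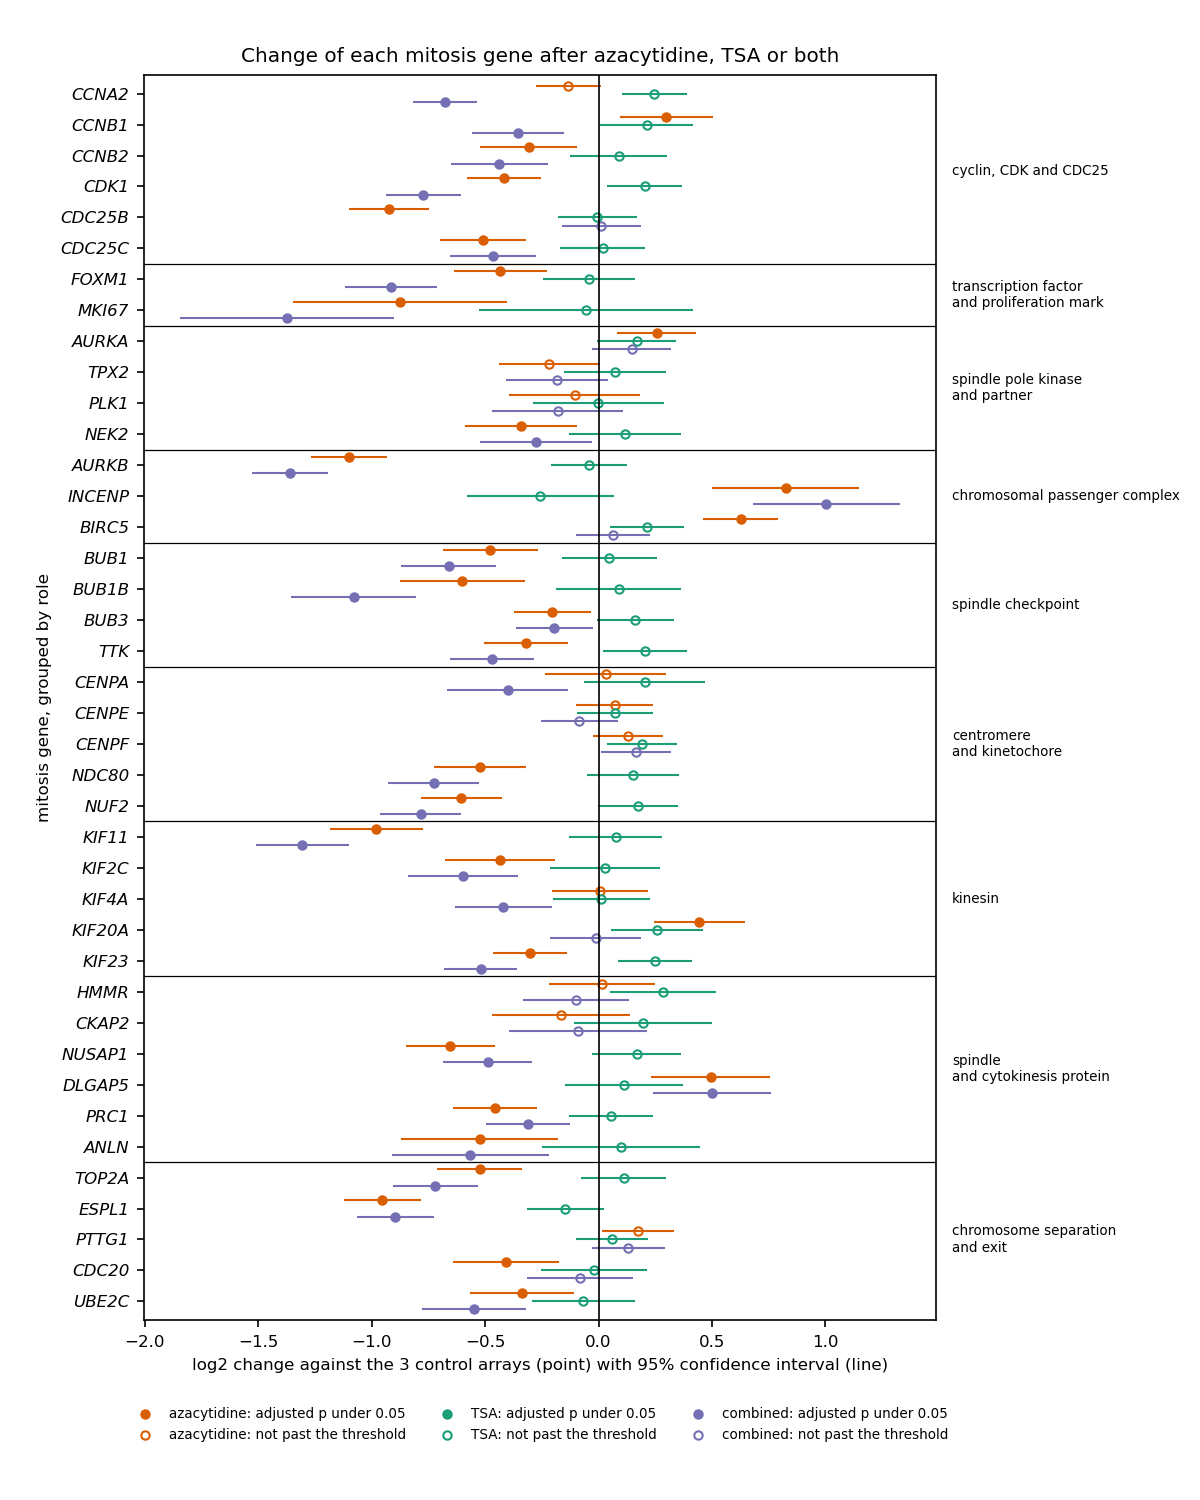
Points are log2 changes against the 3 control arrays and lines are 95% confidence intervals for each gene after azacytidine, TSA or both, and filled points passed an adjusted p of 0.05. The TSA intervals lie around 0, within 1.5-fold either way for all 40 genes.

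Among the cyclins and their kinase, CDK1 fell under azacytidine and further with TSA added. The control arrays gave CDK1 a log2 intensity of 9.72, 9.70 and 9.81, the azacytidine arrays 9.44, 9.31 and 9.23, the TSA arrays 9.91, 10.03 and 9.91 and the combined arrays 8.998, 8.94 and 8.98. The groups did not overlap, with the combined arrays lowest and the TSA arrays highest. The change was -0.42 ± 0.08 after azacytidine (SE, adjusted p = 3.71e-04) and -0.77 ± 0.08 after both (SE, adjusted p = 1.41e-06), and a second CDK1 probe gave -0.60 and -1.14. CCNA2 encodes cyclin A2, the cyclin of S phase and mitotic entry. Its log2 intensity was 8.95, 8.92 and 8.97 in control, 8.77, 8.79 and 8.87 after azacytidine, 9.22, 9.15 and 9.20 after TSA and 8.28, 8.23 and 8.29 after the combined treatment. Its groups were also separate, and only the combined arrays passed: -0.13 ± 0.07 (SE, adjusted p = 0.0942) after azacytidine and -0.68 ± 0.07 (SE, adjusted p = 1.23e-06) after both. CCNB1 encodes cyclin B1, the partner of CDK1 in mitosis. Control arrays stood at 8.50, 8.53 and 8.49 (log2 intensity of CCNB1), azacytidine arrays at 8.95, 8.70 and 8.77, TSA arrays at 8.83, 8.75 and 8.58 and combined arrays at 8.21, 8.01 and 8.24. Azacytidine and TSA arrays lay above all control arrays and the combined arrays below them. The azacytidine change was 0.30 ± 0.09 (SE, adjusted p = 0.0144) and the combined change -0.35 ± 0.09 (SE, adjusted p = 0.00475), so the direction turned. The azacytidine rise did not pass without azacytidine array 1 (0.23, adjusted p = 0.0673) or with median scaling (0.13, adjusted p = 0.518). On chip 2 alone that rise was 0.24 and did not pass. The combined fall was -0.31 on chip 1 alone and -0.37 on chip 2 alone, and passed on neither. CCNB2, cyclin B2, was lower in both (-0.31 and -0.44), and its azacytidine call was lost without control 3, azacytidine 1 or azacytidine 2 (adjusted p 0.0535 to 0.0702).

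The CDC25 phosphatases, which activate CDK1, parted. CDC25B is the phosphatase of early mitotic entry. For CDC25B the 3 control arrays measured 12.18, 11.98 and 12.04, the azacytidine arrays 11.10, 11.19 and 11.15, the TSA arrays 12.02, 12.06 and 12.11 and the combined arrays 11.96, 12.16 and 12.12 (log2 intensity). Azacytidine arrays were far below all others, and the other 3 groups overlapped. The change was -0.92 ± 0.08 after azacytidine (SE, adjusted p = 5.57e-07) and 0.01 ± 0.08 after both (SE, adjusted p = 0.904). CDC25C changed by -0.51 and -0.47 and passed in both; of its other probes 1 gave -0.50 and -0.82, and 1 gave -0.03 and a rise of 0.52 after both, in the opposite direction.

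FOXM1, the transcription factor of the G2/M program, was lower on every array with azacytidine. FOXM1 read 9.59, 9.47 and 9.56 log2 intensity on the control arrays, 8.97, 9.18 and 9.17 after azacytidine, 9.41, 9.51 and 9.57 after TSA and 8.44, 8.73 and 8.70 after both. Combined arrays lay below azacytidine arrays, and control and TSA arrays overlapped. It changed by -0.43 ± 0.09 (SE, adjusted p = 0.00133) and -0.92 ± 0.09 (SE, adjusted p = 1.98e-06), and a second probe gave -0.61 and -0.96. MKI67 was close to the detection limit. The control arrays gave MKI67 a log2 intensity of 6.88, 6.76 and 6.63, the azacytidine arrays 5.70, 6.47 and 5.48, the TSA arrays 6.71, 6.67 and 6.73 and the combined arrays 5.15, 5.80 and 5.20. Azacytidine and combined arrays overlapped and lay below the other arrays. It was detected on 1 of 3 azacytidine arrays, and its fitted azacytidine change, between -1.17 and -0.25 over the alternatives, was -0.87 ± 0.22 (SE, adjusted p = 0.00348); after both it was not well above background, so that the measured means of 6.76 and 5.38 give only a bound, at least 1.33-fold lower than control (adjusted p = 9.76e-05). On chip 2 alone neither MKI67 call passed.

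The chromosomal passenger complex, which corrects wrong attachments and guides cytokinesis, showed opposite changes among its members. AURKB is its kinase. Its log2 intensity was 11.22, 10.97 and 11.03 in control, 9.90, 9.99 and 10.03 after azacytidine, 11.004, 11.04 and 11.05 after TSA and 9.73, 9.70 and 9.72 after the combined treatment. All 6 arrays with azacytidine lay below the other 6. The change was -1.10 ± 0.08 after azacytidine (SE, adjusted p = 7.23e-08) and -1.36 ± 0.08 after both (SE, adjusted p = 6.49e-09), and it passed under every alternative tried for these 2 comparisons. INCENP is the scaffold that activates the kinase. Control arrays stood at 7.71, 7.76 and 7.45 (log2 intensity of INCENP), azacytidine arrays at 8.83, 8.25 and 8.32, TSA arrays at 7.26, 7.60 and 7.29 and combined arrays at 8.75, 8.68 and 8.50. All arrays with azacytidine lay above the rest. The rise was 0.82 ± 0.15 (SE, adjusted p = 3.54e-04) and 1.00 ± 0.15 (SE, adjusted p = 5.83e-05); the other INCENP probe was detected on no array. BIRC5, survivin, targets the complex to chromosomes. For BIRC5 the 3 control arrays measured 10.05, 9.97 and 10.02, the azacytidine arrays 10.74, 10.62 and 10.55, the TSA arrays 10.30, 10.16 and 10.21 and the combined arrays 10.15, 10.03 and 10.05 (log2 intensity). Azacytidine arrays lay above all others, and combined and control arrays overlapped. Its change was 0.63 ± 0.08 (SE, adjusted p = 1.09e-05) after azacytidine and 0.06 ± 0.08 (SE, adjusted p = 0.457) after both. A second BIRC5 probe behaved differently, with -0.25 after azacytidine (adjusted p over probes = 0.068) and -1.23 after both (adjusted p over probes = 6.64e-07), and the mean of both probes did not pass after azacytidine (0.19, adjusted p = 0.0616).

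**Figure D4:**
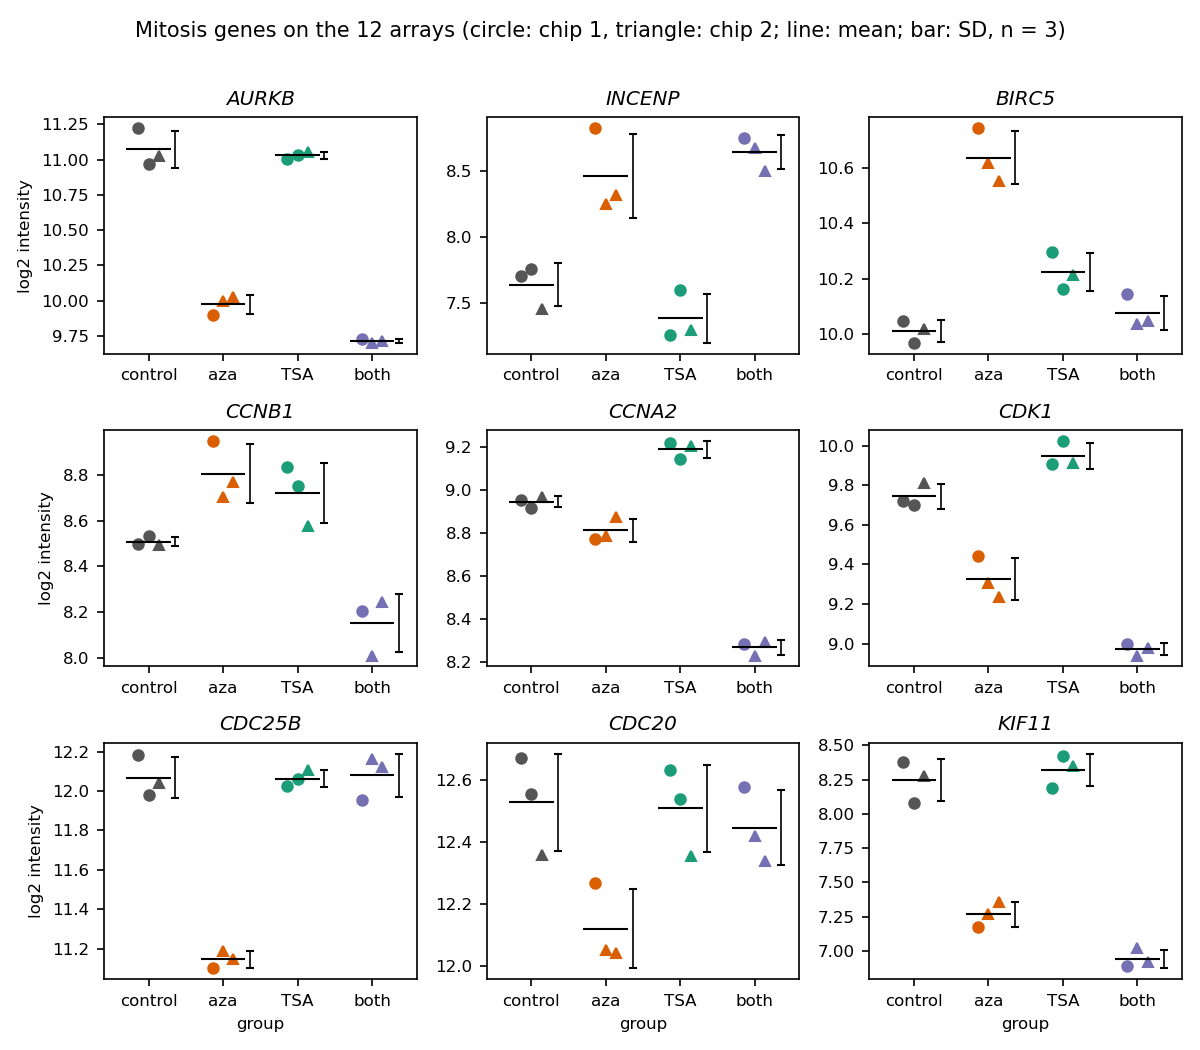
Log2 intensity of 9 mitosis genes on each array, by group (aza is azacytidine, both is the combined treatment); circles are chip 1, triangles chip 2, lines are group means and bars are SD over 3 arrays, and axes do not start at 0. AURKB and KIF11 fell on all arrays with azacytidine, INCENP rose on them, and BIRC5, CCNB1 and CDC25B changed after azacytidine alone in a way the combined arrays did not show.

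Of the spindle pole kinases and partners, few passed. AURKA, which matures centrosomes, rose slightly after azacytidine. AURKA read 10.11, 10.07 and 10.19 log2 intensity on the control arrays, 10.30, 10.39 and 10.46 after azacytidine, 10.17, 10.29 and 10.42 after TSA and 10.31, 10.26 and 10.24 after both. Azacytidine arrays lay above control arrays and overlapped the TSA and combined arrays. The change was 0.26 ± 0.08 (SE, adjusted p = 0.014), not past the threshold without azacytidine array 3 (0.22, adjusted p = 0.061) or with median scaling (0.05, adjusted p = 0.851), and 0.15 ± 0.08 after both (SE, adjusted p = 0.124). PLK1, the Polo-like kinase, ran from 8.84 to 9.18 in control and from 8.68 to 9.04 after both and passed in no comparison, with -0.11 ± 0.13 (SE) after azacytidine. TPX2, which activates AURKA on the spindle, was -0.22 and -0.18 and passed in neither. NEK2, which separates centrosomes, passed narrowly at -0.34 (adjusted p = 0.0194) and -0.28 (adjusted p = 0.0461); the first call was lost without 1 of control 2, control 3, azacytidine 1 and azacytidine 2 (adjusted p 0.0505 to 0.0804) and the second without any of 8 single arrays, that is control 2 and 3, azacytidine 1, all TSA arrays and combined 1 and 2 (adjusted p 0.0521 to 0.18).

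All 4 spindle checkpoint genes were lower in both treatments. BUB1B encodes BUBR1, part of the inhibitor of CDC20. The control arrays gave BUB1B a log2 intensity of 7.87, 7.71 and 7.81, the azacytidine arrays 6.95, 7.36 and 7.28, the TSA arrays 7.79, 8.07 and 7.80 and the combined arrays 6.52, 6.71 and 6.92. Combined arrays lay below azacytidine arrays, which lay below control. It changed by -0.60 ± 0.13 (SE, adjusted p = 0.0011) and -1.08 ± 0.13 (SE, adjusted p = 7.02e-06). BUB1, the checkpoint kinase at kinetochores, changed by -0.48 and -0.66, and TTK, the kinase MPS1 that starts the signal, by -0.32 and -0.47. BUB3, the adaptor of both BUB kinases, changed by -0.20 (adjusted p = 0.037) and -0.20 (adjusted p = 0.0409), and its 4 probes disagreed in size, from 0.03 to -1.32 after azacytidine and from 0.08 to -1.47 after both. Its azacytidine call was lost without control 2, control 3, azacytidine 1 or azacytidine 2 (adjusted p 0.0866 to 0.124), and its combined call without control 2, control 3, azacytidine 2, TSA 1, TSA 2, combined 2 or combined 3 (adjusted p 0.0506 to 0.137).

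At the kinetochore the NDC80 complex and the CENP proteins differed in what passed. NDC80 is the microtubule-binding subunit of that complex. Its log2 intensity was 9.05, 9.12 and 9.30 in control, 8.65, 8.50 and 8.75 after azacytidine, 9.25, 9.31 and 9.36 after TSA and 8.30, 8.49 and 8.50 after the combined treatment. Arrays with azacytidine lay below the other 6. NUF2 is its direct partner. Control arrays stood at 7.93, 8.01 and 7.98 (log2 intensity of NUF2), azacytidine arrays at 7.39, 7.25 and 7.47, TSA arrays at 8.13, 8.16 and 8.15 and combined arrays at 7.28, 7.06 and 7.23. The separation from control and TSA was the same, and azacytidine and combined arrays overlapped. NDC80 changed by -0.52 ± 0.09 (SE, adjusted p = 3.16e-04) and -0.73 ± 0.09 (SE, adjusted p = 1.54e-05), and NUF2 by -0.60 ± 0.08 (SE, adjusted p = 3.01e-05) and -0.78 ± 0.08 (SE, adjusted p = 2.38e-06). CENPA is the histone H3 variant that marks centromeres. For CENPA the 3 control arrays measured 8.37, 8.40 and 8.54, the azacytidine arrays 8.43, 8.58 and 8.40, the TSA arrays 8.60, 8.52 and 8.82 and the combined arrays 7.75, 8.12 and 8.25 (log2 intensity). Only the combined arrays lay below the rest. Its change was 0.03 ± 0.12 (SE, adjusted p = 0.837) and -0.40 ± 0.12 (SE, adjusted p = 0.011), and without combined array 1 the latter was -0.26 (adjusted p = 0.0533). CENPE, the kinetochore motor, and CENPF, a kinetochore and nuclear matrix protein, passed in neither, at -0.08 and 0.16 after both.

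Kinesins include the motors that push spindle poles apart and build the midzone. KIF11 is Eg5, the bipolar spindle motor. KIF11 read 8.38, 8.08 and 8.28 log2 intensity on the control arrays, 7.17, 7.27 and 7.36 after azacytidine, 8.19, 8.42 and 8.35 after TSA and 6.89, 7.02 and 6.92 after both. The combined arrays lay below the azacytidine arrays, and both below control and TSA. The change was -0.98 ± 0.09 (SE, adjusted p = 1.42e-06) and -1.30 ± 0.09 (SE, adjusted p = 7.15e-08), and a second probe gave -0.90 and -1.18. KIF20A, which carries the passenger complex to the midzone, went up after azacytidine. The control arrays gave KIF20A a log2 intensity of 8.70, 8.62 and 8.49, the azacytidine arrays 8.92, 9.15 and 9.07, the TSA arrays 8.92, 8.72 and 8.93 and the combined arrays 8.48, 8.66 and 8.62. Azacytidine and TSA arrays lay above control, while combined and control arrays overlapped. It changed by 0.44 ± 0.09 (SE, adjusted p = 0.00102; 0.27, adjusted p = 0.204 with median scaling) and -0.01 ± 0.09 (SE, adjusted p = 0.908). KIF23, the centralspindlin motor, changed by -0.30 and -0.52 and KIF2C, the centromeric microtubule depolymerase, by -0.43 and -0.60, all past the threshold. KIF4A, a chromosome and midzone motor, was at 0.01 after azacytidine (adjusted p = 0.958) and -0.42 after both (adjusted p = 0.00205).

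Spindle and cytokinesis proteins were divided. DLGAP5, which stabilises kinetochore fibres, rose. Its log2 intensity was 8.67, 8.72 and 8.97 in control, 9.15, 9.29 and 9.40 after azacytidine, 8.75, 8.83 and 9.12 after TSA and 9.13, 9.29 and 9.44 after the combined treatment. Azacytidine and combined arrays overlapped and lay above all control arrays and all TSA arrays. The change was 0.49 ± 0.12 (SE, adjusted p = 0.003) and 0.50 ± 0.12 (SE, adjusted p = 0.00249); with median scaling it was 0.32 and 0.17 and passed in neither (adjusted p 0.217 and 0.492). NUSAP1, which bundles spindle microtubules, changed by -0.65 and -0.49, PRC1, the midzone crosslinker, by -0.46 and -0.31, and ANLN, anillin of the contractile ring, by -0.52 and -0.57; all passed. The azacytidine call of ANLN was lost without control 3 or azacytidine 1 (adjusted p 0.0575 at most). HMMR, a spindle pole adaptor, and CKAP2, a microtubule stabiliser, passed in neither on their brighter probes (-0.10 and -0.09 after both), while their second probes gave -0.48 and -0.45 after both (adjusted p over probes 0.00096 and 0.000569).

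Among genes of chromosome separation and exit, ESPL1, the protease separase that opens cohesin, fell most. Control arrays stood at 9.32, 9.16 and 9.16 (log2 intensity of ESPL1), azacytidine arrays at 8.34, 8.21 and 8.24, TSA arrays at 9.01, 9.14 and 9.05 and combined arrays at 8.26, 8.40 and 8.29. Azacytidine and combined arrays overlapped and lay below all other arrays. Its change was -0.95 ± 0.08 (SE, adjusted p = 3.07e-07) and -0.90 ± 0.08 (SE, adjusted p = 4.34e-07). TOP2A, topoisomerase II alpha, untangles sister chromatids. For TOP2A the 3 control arrays measured 11.13, 11.18 and 11.36, the azacytidine arrays 10.62, 10.69 and 10.80, the TSA arrays 11.30, 11.28 and 11.42 and the combined arrays 10.41, 10.58 and 10.52 (log2 intensity). Combined arrays lay below azacytidine arrays and both below the rest. It changed by -0.52 ± 0.09 (SE, adjusted p = 1.68e-04) and -0.72 ± 0.09 (SE, adjusted p = 8.93e-06). CDC20 activates the anaphase-promoting complex. CDC20 read 12.67, 12.55 and 12.36 log2 intensity on the control arrays, 12.27, 12.05 and 12.04 after azacytidine, 12.63, 12.54 and 12.36 after TSA and 12.58, 12.42 and 12.34 after both. Azacytidine arrays lay below control, while the combined arrays overlapped control. The change was -0.41 ± 0.11 (SE, adjusted p = 0.0051) and -0.08 ± 0.11 (SE, adjusted p = 0.516). UBE2C, the ubiquitin-conjugating enzyme of the same complex, was lower in both (-0.34 and -0.55), but its second probe gave 0.18 and -0.16 with adjusted p over probes of 0.325 and 0.352, the mean of both probes did not pass after azacytidine (-0.08, adjusted p = 0.547), and the azacytidine call was lost without control 1 or azacytidine 1 (adjusted p 0.0572 at most). PTTG1, securin that restrains separase, passed in neither (0.17 and 0.13), and its second probe gave 0.00 and -0.40 (adjusted p over probes 0.988 and 0.00158).

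TSA alone did not move any mitosis gene past the threshold. With limma 0 of 40 genes were higher, where 0.127% of all genes were, and 0 lower, where 0.0211% of all genes were; 9 of 40 had an unadjusted p under 0.05, where 7.64% of all genes did. The median change was 0.09 against -0.00 over all genes, and 31 of the 40 fitted changes were above 0. All 3 TSA arrays lay above all control arrays for 10 genes (BUB3, CCNA2, CCNB1, CDK1, KIF20A, KIF23, CENPF, NUF2, BIRC5 and HMMR), where 4.88% of all genes did so, and below for ESPL1, where 6.36% did. The highest fitted change was that of HMMR, 0.29 ± 0.11 (SE, adjusted p = 0.563), and the lowest that of INCENP, -0.26 ± 0.15 (SE, adjusted p = 0.742). Every 95% interval lay within 1.5-fold either way, between -0.58 and 0.52, so larger changes are outside the intervals. Without control array 3 the median was 0.18, without TSA array 1 it was 0.13, and on chip 1 and chip 2 alone it was 0.14 and 0.07.

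Set against TSA, the combined treatment lowered 29 of 40 genes, where 36.4% of all genes were lower, and raised 2 (INCENP by 1.26 and DLGAP5 by 0.39), where 33.4% were higher. The median was -0.50 against -0.03. This comparison and those with control share arrays, so that they are not independent; HMMR (-0.39), KIF20A (-0.27) and TPX2 (-0.26) passed here and not in the combined group against control. KIF20A was lost without TSA 1, TSA 3 or combined 1 (adjusted p 0.0667 to 0.0807), TPX2 without azacytidine 3, TSA 1, TSA 3, combined 1 or combined 3 (adjusted p 0.0529 to 0.144) and with the replicate number as a block, and the rise of DLGAP5 without TSA 1 or combined 3 (adjusted p 0.0541 at most). With median scaling, under which the median of all genes was -0.43, DLGAP5 turned to -0.07 (adjusted p = 0.782).

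Adding TSA after azacytidine was compared directly with azacytidine alone. 12 genes were lower in the combined group, where 19.4% of all genes were, and 2 were higher, where 15.7% were, with a median of -0.15 against -0.04. The lower genes were led by CCNB1 (-0.65 ± 0.09 SE, adjusted p = 1.92e-04), BIRC5 (-0.56 ± 0.08 SE, adjusted p = 1.08e-04) and CCNA2 (-0.54 ± 0.07 SE, adjusted p = 4.69e-05), and the others were FOXM1 (-0.48), BUB1B (-0.48), KIF20A (-0.46), CENPA (-0.43), KIF4A (-0.43), CDK1 (-0.36), KIF11 (-0.33), AURKB (-0.26) and KIF23 (-0.22). The higher ones were CDC25B (0.93 ± 0.08 SE, adjusted p = 2.39e-06) and CDC20 (0.33 ± 0.11 SE, adjusted p = 0.0321). Of the 5 kinesins 4 were lower, of the 6 cyclin, CDK1 and CDC25 genes 3 were lower and 1 higher, and of the 6 spindle and cytokinesis proteins 0 passed, at an unadjusted p under 0.05 also 0, where 44.8% of all genes were past that p. With median scaling 6 were lower, where 13.6% of all genes were, and 1 higher, where 6.31% were, while the median of all genes was -0.18. On chip 1 alone 2 were lower (3.03% of all genes) and 1 higher (5.32%). The medians within chip 1 and chip 2 were -0.13 and -0.14. Single arrays decided several of these calls: AURKB was lost without azacytidine 2, azacytidine 3, combined 2 or combined 3 (adjusted p 0.051 to 0.0768), KIF11 without azacytidine 3, combined 1 or combined 3 (0.051 to 0.0717), and KIF23 without control 2, any azacytidine array, combined 1 or combined 2 (0.0519 to 0.134). CDC20 was lost without azacytidine 2, azacytidine 3, combined 1 or combined 2 (0.0623 to 0.119), CENPA without azacytidine 2 or combined 1 (0.0622 and 0.0629), and BUB1B without azacytidine 2 (0.05).

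Whether the azacytidine change depended on TSA was tested as an interaction, the azacytidine change with TSA (combined against TSA) minus that without it (azacytidine against control). 12 genes had a lower and 1 a higher azacytidine change when TSA was present, where 11.1% and 11.6% of all genes did, and the median was -0.22 against -0.04. For CCNB1 it was 0.30 without and -0.57 with TSA, a difference of -0.87 ± 0.13 (SE, adjusted p = 6.27e-04). For CCNA2 it was -0.13 without and -0.92 with TSA, a difference of -0.79 ± 0.09 (SE, adjusted p = 7.96e-05). For BIRC5 it was 0.63 without and -0.15 with TSA, a difference of -0.77 ± 0.11 (SE, adjusted p = 2.73e-04). For KIF20A it was 0.44 without and -0.27 with TSA, a difference of -0.72 ± 0.13 (SE, adjusted p = 0.00206). In CCNB1, BIRC5 and KIF20A the fitted azacytidine change on the brightest probe lay above 0 without TSA and below 0 with it. For BIRC5 the change with TSA did not pass (adjusted p = 0.0963), and its second probe was below 0 in both, at -0.25 and -1.24. CENPA (-0.64), CDK1 (-0.56) and KIF23 (-0.46) followed, and CDC25B went the opposite way, from -0.92 to 0.02 (0.94 ± 0.11 SE, adjusted p = 9.91e-05). The second probes of BIRC5, CDK1 and CENPA also passed, at -0.99, -0.81 and -0.46. BUB1B (-0.57), FOXM1 (-0.44), KIF4A (-0.44), KIF11 (-0.40) and NUF2 (-0.35) passed narrowly, and each was lost when any of 6 to 10 single arrays was left out (highest adjusted p 0.0901, 0.0744, 0.0881, 0.113 and 0.111). For TTK (-0.36, adjusted p = 0.0501) and HMMR (-0.40, adjusted p = 0.0765) the difference did not pass. With median scaling, under which the median of all genes was -0.28, 7 were lower (6.76% of all genes) and 0 higher (3.38%), and on chip 1 and chip 2 alone 2 and 3 were lower (1.49% and 1.47% of all genes). The within-chip medians were -0.28 and -0.26.

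**Figure D5:**
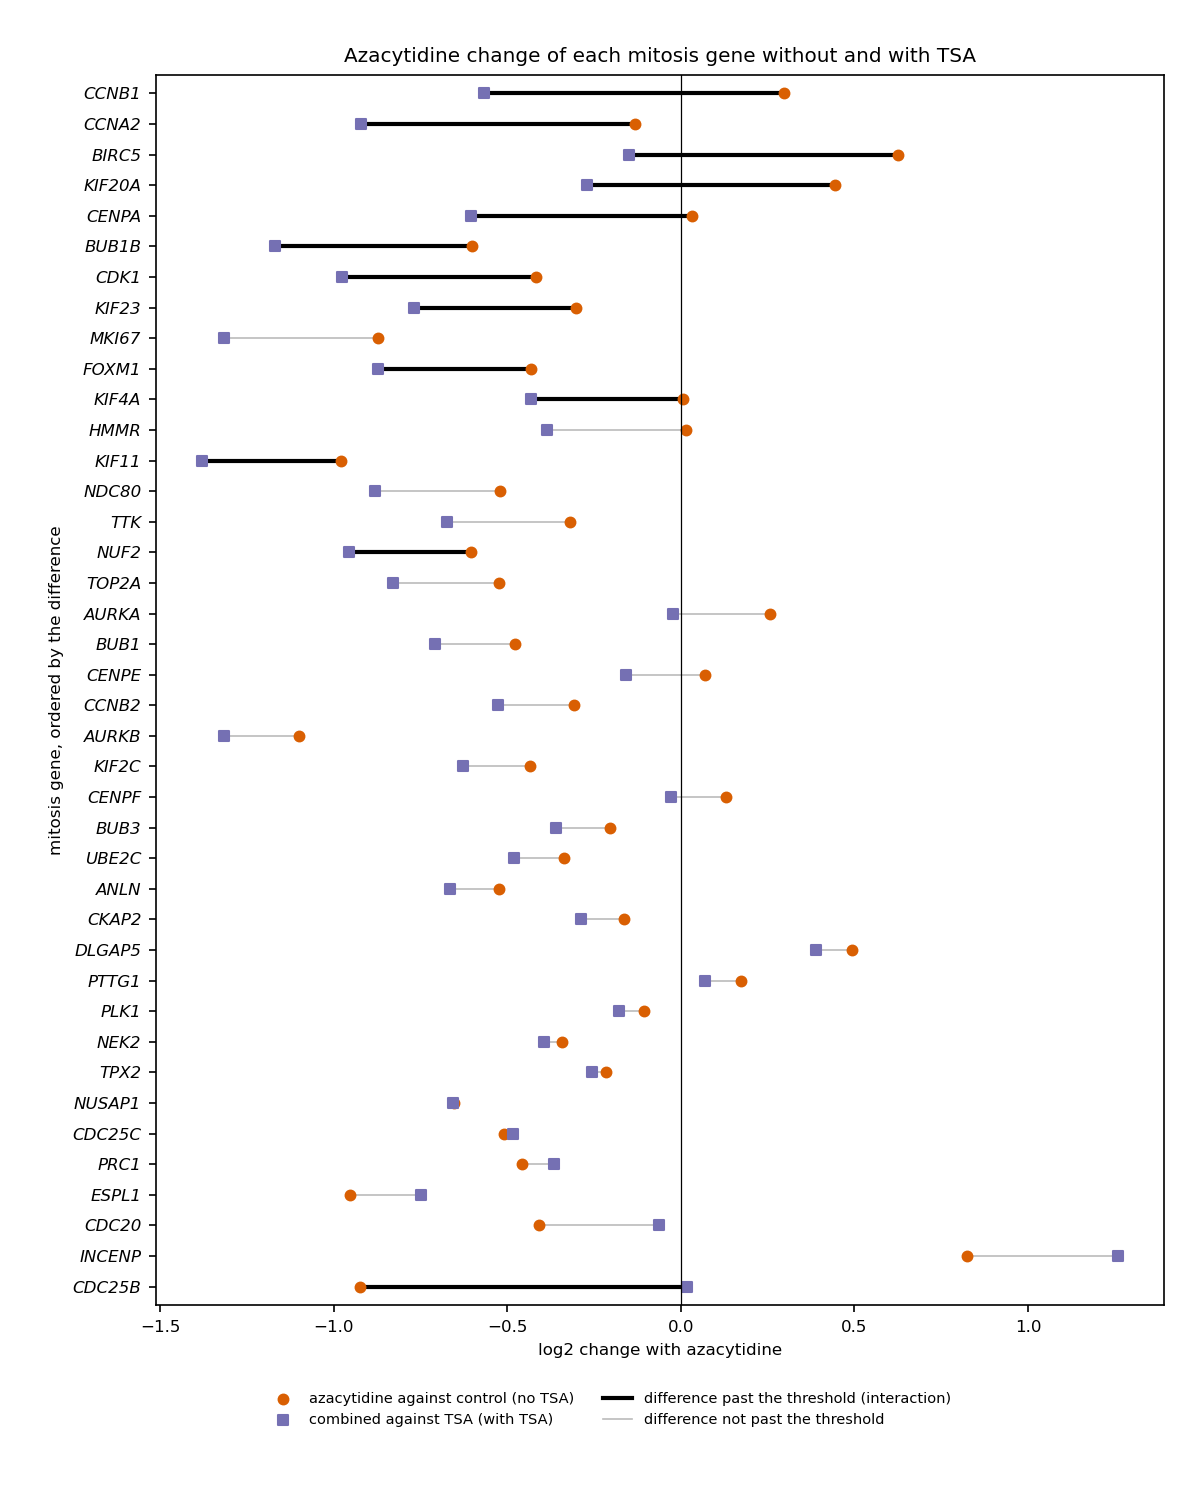
For each mitosis gene, the circle is the log2 change with azacytidine without TSA and the square the change with TSA; the joining line is black where the difference passed. Squares lie left of circles for 34 of the 40 genes, CDC25B has the largest step to the right, and CCNB1, BIRC5 and KIF20A cross 0. The median step was -0.22 for these genes and -0.04 over all genes tested.

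Related lists put these values beside the rest of the cell cycle. Over all genes 31.2% were lower and 32.3% higher after azacytidine (median 0.01), and 36.2% and 32.8% after both (median -0.04). Of 64 other mitotic genes tested, 27 were lower (42.2%) and 11 higher (17.2%) after azacytidine (median -0.19), and 34 (53.1%) and 7 (10.9%) after both (median -0.37). The condensin subunit SMC2 changed by -1.39 and -1.44, the cytokinesis kinase CIT by -1.17 and -1.06, the CDK1-inhibiting kinase PKMYT1 by -0.54 and -1.25, and the kinetochore genes CENPQ and CENPK by -0.86 and -0.80 after azacytidine, while after both they were not well above background, at least 1.60-fold and 1.65-fold lower than control (adjusted p 1.56e-05 and 5.69e-06). The checkpoint gene MAD1L1 rose by 1.10 and 0.68 and CDCA2, a phosphatase partner on chromosomes, by 0.50 and 0.74. KNL1, the kinetochore scaffold, was not well above background in control and was at least 1.32-fold and 1.54-fold higher (adjusted p 5.48e-05 and 4.33e-06). Of 11 genes of the anaphase-promoting complex and its regulators 5 were higher (45.5%) and 3 lower (27.3%, below the share of all genes) after azacytidine (median 0.23) and 3 (27.3%) and 5 (45.5%) after both (median -0.11), with the inhibitor FBXO5 at -0.45 and -0.90, the subunits ANAPC10 at -0.35 and -0.57 and CDC23 at -0.26 and -0.55, the subunit ANAPC4 at 0.36 and 0.44 and the subunit ANAPC11 at 0.45 and 0.76. The activator FZR1 was at 0.51 after azacytidine and 0.16 (not past the threshold) after both. Of 6 cohesin genes 1 was higher (NIPBL, the loader, 0.49 and 0.54) and 1 lower (STAG2, a subunit, -0.63 and -0.74) in each. Of 16 genes of the E2F, DREAM and MuvB machinery 6 were lower (37.5%) and 2 higher (12.5%) after azacytidine (median -0.14), and 7 (43.8%) and 1 (6.25%) after both (median -0.18), so that the lower shares were near those of all genes. CDKN1A, the CDK inhibitor p21, rose by 1.19 and 0.59. LIN9, a MuvB subunit, changed by -0.81 after azacytidine and was at least 1.72-fold lower than control after both, where it was not well above background (adjusted p 1.81e-06). The E2F factor E2F5 was at -0.34 and -0.84, and TFDP1, the E2F partner DP1, at -0.03 (not past the threshold) and -0.68. Of 28 DNA replication genes 10 were lower (35.7%, near the share of all genes) and 5 higher (17.9%) after azacytidine (median -0.14), and 20 (71.4%) and 4 (14.3%) after both (median -0.39), with CDT1, which licenses origins, at -0.81 and -1.23 and RFC5, a clamp loader subunit, at -0.80 and -1.21. The primase subunit PRIM1 was at -0.89 and -0.73, while the flap nuclease FEN1 rose by 0.53 and 0.27, the GINS subunit GINS4 by 0.43 and 0.37 and the replication protein A subunit RPA2 by 0.45 and 0.37. RRM2, a ribonucleotide reductase subunit, was at -0.83 after azacytidine and at least 1.5-fold lower than control after both, where it was not well above background (adjusted p 7.83e-05). In TSA against control 0 genes of any of these lists passed, with 8 of 64, 1 of 11, 0 of 6, 1 of 16 and 4 of 28 at an unadjusted p under 0.05 in the order given, against 7.64% of all genes.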

How the data were processed

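Total RNA of SW48 cells was measured in 12 samples on single-colour Illumina arrays, and groups follow the treatment label. The authors deposited 1 linear intensity per probe and array, and the submitters' processing notes name GenomeStudio; the values show no scaling between arrays. Per the file headers, each intensity comes with a detection p-value. The other table deposited by the authors has processed values on a log2-like scale and served as an alternative. In the submitters' processing notes lumi 2.6.0 is named. The transform of that table and the annotation's genome build are not given in the sources used here. Changes from that table may therefore differ in unit from the log2 changes.

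Intensities were background-corrected with normexp from the detection p-values (offset 16) and quantile-normalized with limma 3.58.1 in R 4.3.3. Of 48803 rows, 1 blank and 1 without an identifier were left out. Probes with detection p under 0.01 on 3 or more arrays were kept (13915), 11694 of them with 1 gene symbol from the platform annotation, and each gene is its probe with the highest mean, giving 9484 genes. Over all 48801 probes, 27577 had 1 symbol, 13 several and 21211 none. All 12 arrays entered 1 limma fit with 4 group means, with Benjamini-Hochberg adjustment over all genes, and called means an adjusted p under 0.05. The fit was also run on simulated data with independent noise for each gene and no chip effect. That run therefore cannot show how the fit behaves where arrays share such effects. For a group not well above background, a bound sets the other group's mean against the higher of the dim probe's own signal and the lowest detected signal per array.

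The 40 genes and the related lists were chosen with earlier results of these data known. Values on every array are printed for the 10 largest decreases of the combined treatment, for genes that rose after azacytidine or both, and for the 5 largest calls each way in combined against azacytidine and in the interaction; genes named from related lists are among the 3 largest changes each way past the threshold. Replicate numbers were checked as pairs: deviations of same-numbered arrays correlated at 0.418, 0.197 and 0.204 between combined and azacytidine, which counts as pairing there, and not above 0.1 in every pair elsewhere. Same-numbered combined and azacytidine arrays shared a chip, and arrays 2 and 3 of both groups lay on chip 2. Each array correlated best with the array of its own number, also within chip 2. The parts of pairing and chip in these correlations were not tested. The main fit holds no pairing, and the replicate number as a block was an alternative. The alternatives varied background correction, normalization, filter, probe choice, blocks, moderation, weights, chips and single arrays.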

Additional observations from a re-analysis of the deposited data

Results flagged for a closer look

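For 13 mitosis genes the azacytidine change with TSA differed from that without it in the test of the difference (limma interaction, adjusted p under 0.05). The difference in log2 change, with minus without TSA, was -0.87 for CCNB1, -0.79 for CCNA2, -0.77 for BIRC5, -0.72 for KIF20A and -0.64 for CENPA. It was -0.57 for BUB1B, -0.56 for CDK1, -0.46 for KIF23, -0.44 for FOXM1, -0.44 for KIF4A, -0.40 for KIF11 and -0.35 for NUF2. CDC25B alone among the 40 had a difference past the threshold upwards, 0.94. The calls of CCNB1, CCNA2, BIRC5, KIF20A, CENPA, CDK1, KIF23 and CDC25B passed without any single array. BUB1B did not pass without control 2 or 3, azacytidine 2 or 3, TSA 2, or combined 1 or 2, and FOXM1 not without control 2, azacytidine 2 or 3, TSA 2 or 3, or combined 1. KIF11 passed only without control 1, azacytidine 1 or TSA 1, KIF4A only without control 3, azacytidine 1 or TSA 1, and NUF2 only without azacytidine 2 or combined 1, among the 12 settings that leave out 1 array.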

How the results depend on the processing

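The mitosis genes' counts and median changes kept their direction in all 6 comparisons under every alternative run, and counts within 1.5 times and medians within the spread between arrays (0.03) are not listed here; the cause of each shift was not tested. Medians are in the order azacytidine, TSA and combined against control, combined against azacytidine, combined against TSA, interaction. Without background correction they were -0.29, 0.08, -0.33, -0.12, -0.45 and -0.18; with median scaling -0.53, 0.21, -0.73, -0.29, -0.98 and -0.49; with cyclic loess -0.34, 0.08, -0.34, -0.087, -0.46 and -0.15; with the authors' processed values -0.26, 0.08, -0.29, -0.10, -0.36 and -0.16. The transform behind the authors' values is not given, so their medians may differ in unit from the others. Array weights gave -0.28 for azacytidine, 0.12 for TSA and -0.26 for the interaction, the mean of a gene's probes -0.59 against TSA and -0.29 for the interaction, and the chip as a block -0.47 for the combined treatment. Chip 1 alone gave -0.29, 0.14, -0.37, -0.13, -0.54 and -0.28, and chip 2 alone -0.38 for azacytidine and -0.26 for the interaction.

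Counts of higher genes with median scaling were 2 after azacytidine, 1 after both, 1 against azacytidine, 1 against TSA and 0 in the interaction; lower genes were 6 against azacytidine and 7 in the interaction. Cyclic loess gave 4 higher after both and 7 lower in the interaction, and array weights 4 higher after both and 2 in the interaction. No filter on dim probes gave 1 higher against azacytidine and 7 lower in the interaction. Chip 1 alone gave 15 lower after azacytidine, 2 lower and 1 higher against azacytidine, and 2 lower and 0 higher in the interaction; chip 2 alone gave 1 higher against TSA and 3 lower in the interaction. Higher interaction genes numbered 3 with the chip as a block and 2 with the replicate number as a block, which moved no other count by over 1.5 times; among single genes it ended the calls of TPX2 against TSA and KIF11 in the interaction.

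Leaving out 1 array at a time gave medians from -0.35 to -0.28 (azacytidine), 0.074 to 0.18 (TSA), -0.45 to -0.37 (combined), -0.17 to -0.12 (against azacytidine), -0.52 to -0.49 (against TSA) and -0.29 to -0.20 (interaction). Higher genes ran from 5 to 7, 0 to 0, 2 to 3, 1 to 3, 1 to 2 and 1 to 2, and lower genes from 19 to 24, 0 to 0, 24 to 26, 8 to 12, 27 to 29 and 7 to 12. DLGAP5 reversed against TSA with median scaling, to -0.070. Of the called genes 13 of 30, 18 of 28, 2 of 14, 22 of 31 and 0 of 13 (azacytidine, combined, against azacytidine, against TSA, interaction) passed under every alternative. MKI67 was near background, which limits its values.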
